A study of Homo sapiens with 12 samples.

Results

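Gene expression in Huh7 cells given thalidomide alone was compared with that in cells given solvent, labelled DMSO. Huh7 is an established human hepatocellular carcinoma cell line. TPM is a length-scaled share of all transcripts that sums to the same total in every library. Genes were kept where 3 or more of the 6 libraries reached 1 TPM, which kept 13994 of the 59191 features in the table and left out 45197. Of those kept, 11989 are annotated as protein-coding and 214 are assembled loci without a gene identifier. Each group had 3 libraries, and the series holds 6 further libraries from cells given disulfiram alone or both drugs together. The 2 groups compared here differ in the drug only, as far as the labels say, and all cells are of the 1 line. The labels call the libraries replicates, without saying that they came from separate cultures, and a p-value here therefore covers no more than the spread between these libraries. No source used here gives the unit of the dose, the length of treatment or the sequencing depth. The extraction text attached to the samples describes dissociated patient tissue and droplet libraries of single cells, which does not describe a table of cell line libraries, so how these libraries were prepared is not known.

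Cereblon, to which thalidomide binds, selects the substrates of a ubiquitin ligase built on DDB1, a CUL4 scaffold and the RING protein RBX1. With the drug bound, the ligase takes up proteins that it otherwise leaves alone, mostly zinc finger proteins such as IKZF1, IKZF3 and SALL4, and marks them for destruction by the proteasome. The drug is known as a teratogen, as an inhibitor of blood vessel growth and, with its analogs, as a treatment of myeloma. A transcript table does not measure the loss of such proteins, only the RNA levels that go with the treatment.

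The 12 hepatocyte and hepatoma markers, among them ALB, AFP, APOA1 and HNF4A, all had a mean TPM of at least 1. Of 20 immune markers 5 reached that level, of 14 endothelial markers 2, of 14 fibroblast and stellate markers 7 and of 8 cholangiocyte markers 6. Their summed TPM overlapped between control and thalidomide in every list (immune 132 to 185 and 131 to 178, endothelial 1.85 to 3.12 and 2.73 to 3.69). The endothelial markers KDR, TEK and 6 others were listed at 0 in all 6 libraries. In bulk values such as these, fewer cells of a type and less RNA per cell cannot be told apart. Genes at a TPM of at least 1 numbered 13693 to 14097 in the controls and 13711 to 14207 with thalidomide (two-sided exact permutation p = 0.7, where 3 against 3 cannot go below 0.10). Transcripts of the mitochondrial genome took 10.4% to 11.1% and 10.2% to 10.9% of the TPM total (exact permutation p = 0.8). The first principal component of the 6 libraries held 29.4% of the variance and had the controls at -6.9, 12 and 24.1 and the thalidomide libraries at -9.9, -24.7 and 5.4, so that the groups overlapped on it. Across genes, GC content went with the deviation from the group mean in thalidomide library 1 (rho 0.51, Spearman) and, in the other direction, in library 3 (rho -0.42), while the controls had values from -0.20 to 0.14.

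No gene passed the threshold with thalidomide, an adjusted p below 0.05 in limma with Benjamini-Hochberg adjustment over all 13994 genes (0%). At an unadjusted p below 0.05 stood 826 genes, where 700 would be counted on average by chance alone. Genes are not independent, so a chance count can lie well away from 700, and how far was not tested. Of these, 322 were higher with thalidomide (2.3% of genes compared) and 504 lower (3.6%). That balance depended on scaling: 395 were higher and 347 lower with median-of-ratios scaling, and 425 and 416 with quantile normalization. In 533 genes all 3 thalidomide libraries lay above all 3 controls (3.81%), and in 926 all lay below (6.62%). The log2 difference of thalidomide minus control lay below 0 in 8197 genes (58.6%) and above 0 in 5797. Its median over all genes, -0.04, was -0.00 with median-of-ratios scaling. Differences were small: 95% of the log2 differences, all on the log2(TPM + 1) scale, lay between -0.42 and 0.42, with a median of -0.04 and a median SE of 0.16. Only 73 genes differed by at least 1 on that scale, and 33 of these had libraries that did not overlap. All differences below are therefore given as values that did not pass the threshold, unless another fit is named.

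**Figure D1:**
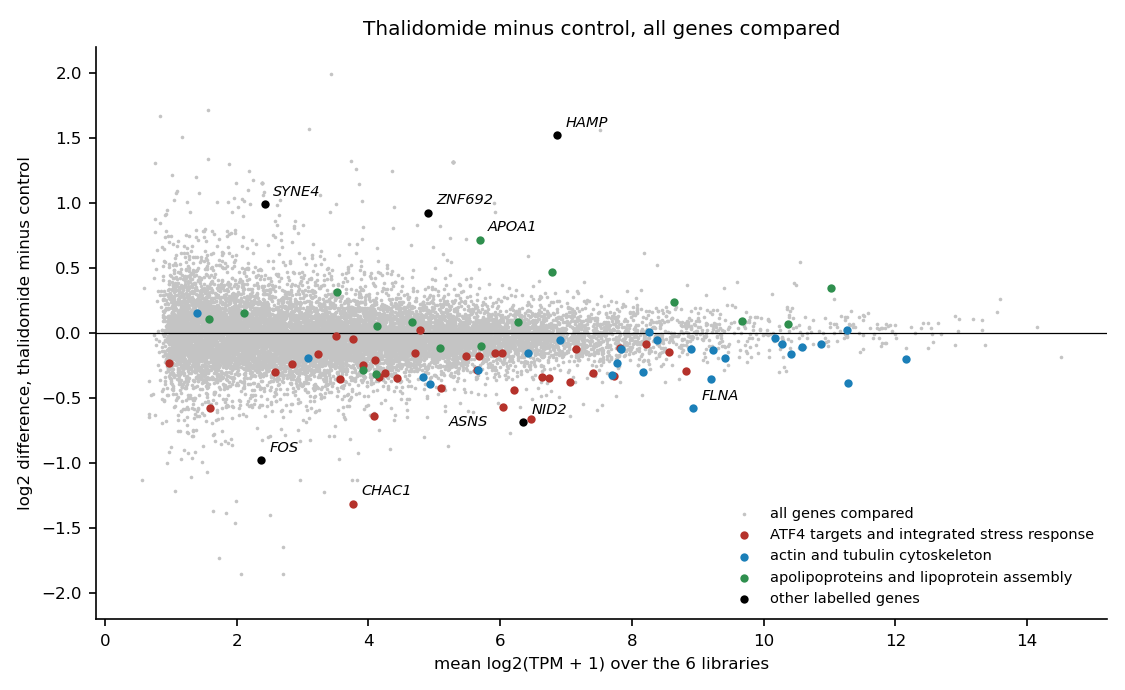
Each point is 1 of the 13994 genes, by its mean log2(TPM + 1) over the 6 libraries and the log2 difference of thalidomide minus control (6 genes lie outside the vertical range and are not drawn). Members of the ATF4 list (red) lie mostly below 0, with CHAC1 at -1.31. Cytoskeleton genes are blue, apolipoprotein genes green and other labelled genes black, among them ZNF692 at 0.93.

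The gene of the drug's target did not differ beyond the spread between libraries. CRBN, which encodes cereblon (chromosome 3, 3144628 to 3179727, minus strand, hg38), was at 12.2, 10.7 and 9.37 TPM in the controls, against 11.7, 11.3 and 13.3 TPM with thalidomide. The groups overlapped (log2 difference 0.16 ± 0.24, SE). All 12 genes listed for the ligase and its regulators were measured, among them DDB1, CUL4A, CUL4B, RBX1 and the ubiquitin-like modifier NEDD8. Their differences ran from -0.11 to 0.16 with a median of -0.00, and 0 of 12 had an unadjusted p below 0.05 in either direction (1 without thalidomide 2). Over all genes 2.3% were higher and 3.6% lower at that level, so a count of 0 among so few genes does not set them apart.

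Among the genes listed for substrates of cereblon, with or without a drug bound, ZNF692 had the smallest p. This zinc finger gene lies on chromosome 1 at 248850006 to 248859144 on the minus strand (hg38). Its level was 21.4, 24.1 and 16.9 TPM in the controls, against 37.1, 48.0 and 36.2 TPM with thalidomide. The lowest thalidomide library stood above the highest control, and the mean was 194% of the control mean. The log2 difference was 0.93 ± 0.14, the second smallest p of all genes (unadjusted p = 2.08e-05, limma adjusted p = 0.146). Its adjusted p ran from 0.0518 to 0.398 as each of the 6 libraries was left out in turn, and it was 0.466 with only these 6 libraries in the fit. Correcting each library for GC content left the difference at 0.89.

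The same gene can be followed in 6 libraries of the other groups. ZNF692 was at 22.6, 24.6 and 25.9 TPM in cells given disulfiram and at 34.0, 31.0 and 35.9 TPM in cells given both drugs. The groups again did not overlap, with the libraries that received thalidomide higher (log2 difference 0.45 ± 0.14, unadjusted p = 0.00698, adjusted p = 0.245). The size in the presence of disulfiram was smaller by 0.48 ± 0.20 on the log2 scale, which did not pass the threshold (adjusted p = 0.445).

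Other substrate genes showed no such difference. Of 29 genes on that list 23 were compared, and IKZF1, IKZF2, IKZF3, ZBTB16, ZNF98 and FAM83F did not reach the TPM minimum. IKZF1 and IKZF3, the substrates by which the drug class acts in myeloma, had a highest value of 0.03 TPM each in the 6 libraries. ZNF692 was the 1 member of 23 higher at an unadjusted p below 0.05 and GSPT1 the 1 lower, against 2.3% and 3.6% of all genes, and the median was -0.06. The higher count became 2 without control 1 or thalidomide 2 and 3 without thalidomide 1, and the lower count 0 without control 2, control 3, thalidomide 1 or thalidomide 2. GSPT1, a translation termination factor, was at 61.8, 65.3 and 70.6 TPM in the controls, against 53.8, 53.5 and 60.6 TPM with thalidomide (-0.23 ± 0.11). CSNK1A1, a casein kinase degraded with the analog lenalidomide, was at 50.1, 62.7 and 54.3 TPM and 47.6, 52.2 and 53.7 TPM. SALL4, whose protein loss has been linked to limb defects, was close to the TPM minimum, at 2.04, 1.21 and 1.64 TPM and 1.21, 1.90 and 1.55 TPM, and no difference was detectable at that level.

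**Figure D2:**
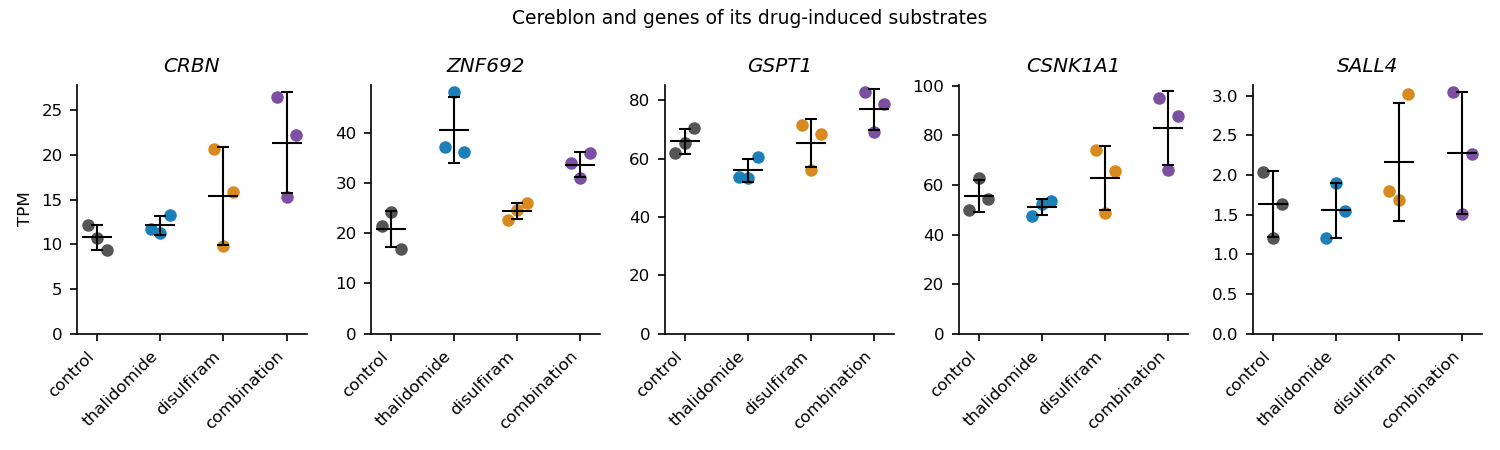
TPM of CRBN and 4 substrate genes in the 4 groups; points are libraries, horizontal marks are group means and bars are SD over 3 libraries, and each panel has its own axis from 0. The thalidomide libraries lie above the controls for ZNF692 (36.2 to 48.0 against 16.9 to 24.1 TPM) and just below them for GSPT1, and overlap with them in the other 3 panels.

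The smallest p of all genes belonged to NID2, which encodes nidogen 2, a basement membrane protein that links laminin and collagen IV networks (chromosome 14, 52004803 to 52069228, hg38). NID2 was at 94.6, 98.1 and 115 TPM in the controls, against 65.1, 59.9 and 64.8 TPM with thalidomide. The 3 thalidomide libraries lay close together and below every control, at 61.6% of the control mean (-0.69 ± 0.09, limma adjusted p = 0.0559). The adjusted p was 0.0148 without control 1 and up to 0.253 when another library was left out. RTRAF, which overlaps NID2 on the opposite strand, differed by -0.07, and whether the counting used strand is not known.

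The rule for the smallest p named 4 other lower genes, TNFRSF21, CCDC80, LIPH and FOS. TNFRSF21, the death receptor DR6, was at 57.8, 64.6 and 62.4 TPM in the controls, against 45.5, 47.0 and 47.8 TPM with thalidomide (-0.39 ± 0.07). CCDC80, a secreted matrix protein, was at 79.4, 93.7 and 104 TPM and 48.0, 46.8 and 68.5 TPM (-0.77 ± 0.15). LIPH, a membrane phospholipase that makes lysophosphatidic acid, was at 8.32, 9.20 and 11.2 TPM and 5.24, 6.23 and 5.17 TPM (-0.69 ± 0.13). In all 3 genes the groups were apart, with an adjusted p of 0.312 in limma.

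Among the higher genes, S100A9 and SYNE4 had the smallest p after ZNF692 and a low pseudogene. S100A9, a calcium-binding protein best known from myeloid cells, was at 2.52, 1.38 and 1.25 TPM in the controls, against 4.82, 4.93 and 5.01 TPM with thalidomide (1.15 ± 0.22). SYNE4, which encodes nesprin 4 of the nuclear envelope, was at 3.91, 2.47 and 2.26 TPM and 5.15, 8.37 and 6.59 TPM (0.99 ± 0.19). Both had an adjusted p of 0.312 in limma, and 0.0382 without control 1. The pseudogenes RPL23AP97 and COX5BP7 followed the same rule of smallest p. RPL23AP97 was at 0, 0 and 0.24 TPM in the controls, against 1.68, 1.86 and 1.47 TPM with thalidomide, and COX5BP7 was listed at 0 in all controls and at 3.45, 2.46 and 1.09 TPM with thalidomide.

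The largest differences were mixed in kind. Among genes with no overlap, an unadjusted p below 0.05 and a mean of at least 5 TPM in either group, 129 were higher and 296 lower. Many of those with the largest values on the higher side were RNAs whose reads are hard to place. The small nuclear RNA gene RNU1-3 was at 2.45, 0 and 0 TPM in the controls, against 4.81, 8.61 and 7.41 TPM with thalidomide. The 5.8S ribosomal RNA copy RNA5-8SN4 was at 35.6, 10.9 and 33.0 TPM and 46.4, 77.3 and 61.0 TPM. Both have near-identical copies, as have NPIPB14P and the pseudogene PPIAP29, so their values are uncertain.

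Besides SYNE4 and ZNF692, the protein-coding genes that the rule named on the higher side were FBXL16, LDLRAD4 and PROCA1. AC006486.1, a protein-coding gene that the rule left out for its clone name, had a larger difference than these 3 (1.06 ± 0.26), with 10.3, 4.12 and 4.04 TPM in the controls, against 12.9, 13.2 and 12.4 TPM with thalidomide. FBXL16, an F-box protein, was at 5.20, 5.19 and 12.7 TPM in the controls, against 13.2, 20.1 and 13 TPM with thalidomide. LDLRAD4, an inhibitor of TGF-beta signalling, was at 6.47, 6.04 and 3.10 TPM and 7.18, 9.85 and 12.7 TPM (0.83 ± 0.28). PROCA1 was at 5.17, 3.05 and 2.66 TPM and 5.59, 8.69 and 5.86 TPM (0.75 ± 0.24). In each of the 3 genes, 1 control came close to the lowest thalidomide library.

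On the lower side, CHAC1 and FOS are described with their groups below. TTC16 was at 16.3, 27.8 and 17.3 TPM in the controls, against 8.99, 5.03 and 13.5 TPM with thalidomide (-1.13 ± 0.35). AREG, which encodes the EGF receptor ligand amphiregulin, was at 23.8, 46.6 and 44.2 TPM and 21.8, 19.1 and 21.2 TPM (-0.80 ± 0.22). Its level in control 1 lay nearer to the thalidomide libraries than to the other controls. AMPH (-0.78 ± 0.16), the zinc finger gene ZMYM2 (-0.83 ± 0.36), the CD3 chain gene CD3D (-0.79 ± 0.31) and the antisense RNA SPRY4-AS1 (-0.82 ± 0.19) also met the rule, as did BOLA2 and MLLT10P1, which have near-identical copies elsewhere.

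With only the 6 libraries in the fit, 3 genes passed the threshold (0.0214%), and each is listed at 0 in an entire group. PSMC1P5, a proteasome pseudogene, was at 0 in the controls and at 27.6, 11.4 and 16.1 TPM with thalidomide. SNORA57, a small nucleolar RNA, was at 0 in the controls and at 13.4, 27.7 and 10.3 TPM. RF02195, a structured element on the opposite strand of TP53TG1, was at 46.9, 19.9 and 37.1 TPM in the controls, against 0 with thalidomide. Without counts, a listed 0 cannot be told from a failed estimate. In cells given disulfiram, PSMC1P5 was at 14.8, 4.40 and 26.5 TPM and SNORA57 at 15, 0 and 19.2 TPM, so values of this size and zeros occurred within 1 group.

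Among the lists, ATF4 targets had the lowest median. ATF4 is a transcription factor that acts in the integrated stress response. Its RNA is translated when the initiation factor eIF2 is phosphorylated, and it drives genes of amino acid synthesis, amino acid import and tRNA charging. Of 36 measured genes on this list, 35 lay below 0, beside 58.6% of all genes, and 1 above. The median was -0.29 against -0.04 over all genes. At an unadjusted p below 0.05, 17 were lower and 0 higher, beside 3.6% and 2.3% of all genes. Libraries of the groups did not overlap in 10 of the 36, all lower, beside 6.62% of all genes. None passed the threshold. The count of 17 became 10 without control 2, 7 without control 3 and 11 without thalidomide 1 or with median-of-ratios scaling, and the median stayed between -0.32 and -0.19 over the 19 alternatives.

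CHAC1, which degrades glutathione and is a sensitive ATF4 target, differed most. It was at 10.6, 29.4 and 27.0 TPM in the controls, against 6.44, 8.85 and 7.82 TPM with thalidomide. All thalidomide libraries were below all controls, but control 1 was nearer to them than to the other controls (-1.31 ± 0.31, adjusted p = 0.463, and 0.0104 without control 1). ASNS, the asparagine synthetase, was at 70.2, 84.9 and 82.8 TPM and 42.7, 56.2 and 62.1 TPM (-0.57 ± 0.15). STC2, a secreted glycoprotein, was at 14.4, 22.7 and 24.7 TPM and 12.9, 13.3 and 11.6 TPM (-0.64 ± 0.19). These 3 genes had the smallest p of the list.

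Of 5 enzymes of serine and one-carbon metabolism on the list, 3 had an unadjusted p below 0.05, and all 5 lay below 0. Over all genes, 3.6% were lower at that level and 58.6% lay below 0. The 3 are part of the 17 counted above, and these enzymes were picked out after their values were seen. PSAT1, which makes phosphoserine, was at 134, 161 and 157 TPM in the controls, against 102, 114 and 133 TPM with thalidomide (-0.38 ± 0.12). MTHFD2, a mitochondrial folate enzyme, was at 36.0, 39.9 and 40.5 TPM and 23.3, 29.5 and 33.9 TPM (-0.43 ± 0.15). Both had groups without overlap. PSPH, the last enzyme of serine synthesis, differed by -0.34 ± 0.12 with overlapping libraries. PHGDH, the first enzyme of that route (-0.09 ± 0.11), and the mitochondrial enzyme gene SHMT2 (-0.14 ± 0.09) were not among the 3.

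Of 8 amino acid transporters on the list, 5 had an unadjusted p below 0.05, and all 8 lay below 0. Over all genes, 3.6% were lower at that level and 58.6% lay below 0. The 5 are also part of the 17, and the transporters were likewise picked out after their values were seen. SLC1A5, the glutamine transporter, was at 210, 245 and 258 TPM in the controls, against 198, 177 and 192 TPM with thalidomide (-0.33 ± 0.11). SLC7A5, which carries leucine and other large amino acids, was at 73.4, 85.2 and 100 TPM and 60.9, 53.5 and 76.4 TPM (-0.44 ± 0.16). Its partner chain SLC3A2 (-0.31 ± 0.14), the arginine transporter SLC7A1 (-0.35 ± 0.14) and the neutral amino acid transporter SLC1A4 (-0.31 ± 0.12) were the others of the 5. SLC38A2 (-0.28 ± 0.19), SLC7A11 (-0.23 ± 0.18) and SLC6A9 (-0.24 ± 0.15) were not.

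ATF4 itself was at 436, 542 and 535 TPM in the controls, against 351, 456 and 427 TPM with thalidomide (-0.29 ± 0.11), with 1 thalidomide library above the lowest control. The stress hormone gene GDF15 was at 71.1, 170 and 112 TPM and 75.9, 82.5 and 54.0 TPM (-0.66 ± 0.24). The stress protein gene NUPR1 (-0.34 ± 0.11), the leucine sensor gene SESN2 (-0.35 ± 0.14), the peptide hormone gene ADM2 (-0.58 ± 0.26) and the transcription factor gene CEBPB (-0.34 ± 0.15) complete the 17. Other members of the list differed little. Among them were DDIT3 (-0.05 ± 0.15), ATF5 (-0.02 ± 0.24), CEBPG (0.02 ± 0.16), TRIB3 (-0.12 ± 0.09), PPP1R15A (-0.15 ± 0.09) and DDIT4 (-0.18 ± 0.26).

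The 20 cytosolic aminoacyl-tRNA synthetases, enzymes that charge tRNAs with amino acids, lay mostly on the same side. Of these, 17 lay below 0, beside 58.6% of all genes, and the median was -0.24. At an unadjusted p below 0.05, 5 were lower and 0 higher, beside 3.6% and 2.3% of all genes, and in 5 of the 20 the groups did not overlap, all lower, beside 6.62%. AARS, for alanine, was at 238, 242 and 248 TPM in the controls, against 191, 204 and 215 TPM with thalidomide (-0.26 ± 0.08). YARS, for tyrosine, was at 145, 151 and 164 TPM and 111, 120 and 134 TPM (-0.34 ± 0.10). MARS (-0.47 ± 0.16), SARS (-0.28 ± 0.11) and GARS (-0.38 ± 0.13) were the others, of which GARS had overlapping libraries and MARS overlaps DDIT3 on the opposite strand of the genome. The count of 5 became 3 without control 2, control 3 or thalidomide 1, 8 without thalidomide 3 or with only the 6 libraries in the fit, and 9 with 10 libraries.

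Genes that act before ATF4 were looked at separately, and the difference between the lists was not tested. Of 15 genes for the eIF2 kinases, eIF2 subunits and phosphatases, 12 lay below 0, beside 58.6% of all genes, with a median of -0.09. At an unadjusted p below 0.05 stood 0 of them, beside 3.6% of all genes lower and 2.3% higher. That count became 3 lower without thalidomide 3 and 1 without thalidomide 2. The kinase gene EIF2AK3, which encodes PERK, was at 13.8, 12.2 and 13.3 TPM in the controls, against 8.62, 12.2 and 10.4 TPM with thalidomide. For the unfolded protein response in the endoplasmic reticulum, 1 of 25 genes was lower at that level, beside 3.6% of all genes. It was the sensor gene ERN1 (-0.30 ± 0.13), and the median of the list was -0.07. That 1 became 0 without control 1, control 2, control 3 or thalidomide 1.

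The C/EBP-ATF response element, the composite site that ATF4 binds with a C/EBP partner, was looked for in RefSeq promoters (GRCh38.p14) as TGATGNAA on both strands of the 250 bases before each start. It was in 870 of 27305 promoters (3.19%), in 3 of the 30 matched members of the ATF4 list and in 2 of 12 matched tRNA synthetase genes. Of the genes lower at an unadjusted p below 0.05, promoters were matched for 15 of 17 ATF4 genes and 1 of 5 synthetases, so the others were not searched. Those with a match are shown with 10 bases on each side, read along the gene's strand, with the motif or its reverse complement in capitals. ATF3 (-0.21) and IARS (-0.29) also had a match, with an unadjusted p above 0.05. The windows are chr7:97872459-97872486 (minus strand), chr15:40953252-40953279 (plus strand) and chr16:70289676-70289703 (minus strand).
ASNS: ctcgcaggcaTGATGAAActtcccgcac
CHAC1: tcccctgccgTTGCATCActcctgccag
AARS: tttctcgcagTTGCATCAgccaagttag
The motif began 68 bases before the annotated start in ASNS, 209 in CHAC1 and 187 in AARS. A match is a string of letters and does not show binding.

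Immediate early genes respond within minutes to growth factor signalling through MAP kinases, and were listed together with the feedback genes of that pathway. Of 29 measured, 24 lay below 0, beside 58.6% of all genes, and 5 above, with a median of -0.15. At an unadjusted p below 0.05, 9 were lower and 0 higher, beside 3.6% and 2.3% of all genes. In 6 of the 29 the groups did not overlap, all lower, beside 6.62%. The 9 became 5 without control 2 or thalidomide 2 and 4 with a mean of at least 5 TPM, a filter that leaves fewer members. FOS, a subunit of AP-1, was at 5.38, 9.19 and 4.86 TPM in the controls, against 2.96, 2.86 and 2.26 TPM with thalidomide, 41.6% of the control mean (-0.98 ± 0.19, limma adjusted p = 0.312). KLF2 was at 3.11, 7.05 and 2.76 TPM and 1.99, 1.39 and 2.18 TPM (-0.82 ± 0.26). EGR1 was at 5.79, 8.28 and 3.16 TPM and 3.21, 1.96 and 3.63 TPM (-0.73 ± 0.28), with 2 thalidomide libraries above the lowest control.

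MYC, which encodes a growth-driving transcription factor, was at 11.5, 24.1 and 25.0 TPM in the controls, against 13.7, 9.78 and 13 TPM with thalidomide. Control 1 lay within the thalidomide range (-0.63 ± 0.24). DUSP4, a phosphatase that switches off ERK, was at 26.6, 37.0 and 34.8 TPM and 25.9, 23.1 and 24.7 TPM (-0.39 ± 0.12), and DUSP5 differed by -0.56 ± 0.24. CYR61, a matrix signalling protein, was at 165, 183 and 209 TPM and 153, 88.5 and 149 TPM (-0.54 ± 0.19). FOSL1 (-0.75 ± 0.24) and PHLDA1 (-0.48 ± 0.19) were the other members counted. Feedback genes of the pathway were not lower as a whole. SPRY2 (-0.00 ± 0.14), SPRY4 (-0.06 ± 0.16), SPRED1 (-0.08 ± 0.16) and SPRED2 (-0.02 ± 0.09) lay close to 0, and SPRY1 at -0.15 ± 0.14. Above 0 lay DUSP6 (0.08 ± 0.15), JUN (0.13 ± 0.15), JUND (0.01 ± 0.14), NR4A1 (0.09 ± 0.15) and ZFP36 (0.15 ± 0.11).

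Within the cytoskeleton list, the members at an unadjusted p below 0.05 were actin-side genes. Of 26 measured, 23 lay below 0, beside 58.6% of all genes, and 3 above, with a median of -0.16. In 10 the groups did not overlap, all lower, beside 6.62% of all genes. At an unadjusted p below 0.05, 7 were lower and 0 higher, beside 3.6% and 2.3% of all genes, and the 7 ran from 4 with median-of-ratios scaling to 10 over the alternatives. None of the 9 tubulin genes was among them (-0.34 to 0.01). Yet 8 of the 9 lay below 0, as did 15 of the 17 other genes of the list. With 3.6% of all genes lower at that level, none of 9 does not set the tubulins apart. FLNA, the actin crosslinker filamin A, was at 477, 644 and 682 TPM in the controls, against 453, 363 and 380 TPM with thalidomide (-0.58 ± 0.15). VCL, which ties actin to adhesions as vinculin, was at 29.6, 37.2 and 35.6 TPM and 24.6, 27.1 and 25.4 TPM (-0.39 ± 0.10). ACTG1, cytoplasmic gamma-actin, was at 2316, 3182 and 3170 TPM and 2170, 2273 and 2113 TPM (-0.39 ± 0.14). In all 3 genes control 1 was the lowest control.

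TAGLN2, a calponin family protein, lay between 599 and 707 TPM in the controls and between 481 and 546 TPM with thalidomide (-0.35 ± 0.09). The myosin heavy chain gene MYH9 (-0.32 ± 0.10), the crosslinker gene ACTN1 (-0.29 ± 0.10) and the tropomyosin gene TPM2 (-0.30 ± 0.12) were the other 3. ACTB, cytoplasmic beta-actin, was at 4533, 5046 and 5185 TPM and 4472, 3944 and 4456 TPM (-0.20 ± 0.10), without overlap but with an unadjusted p of 0.0624.

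Serum response factor, which drives both actin genes and several immediate early genes, binds the CArG box. That motif was found in 312 of 27305 RefSeq promoters (1.14%), in 3 of 23 matched cytoskeleton genes (TPM4, ACTG1 and FLNA) and in 1 of 21 matched immediate early genes (EGR1, with 2 matches). Of the genes lower at an unadjusted p below 0.05, promoters were matched for 7 of 7 cytoskeleton genes and 4 of 9 immediate early genes. Matches are shown for the lower genes in the same way, with the box in capitals and 1 match for EGR1. The windows are chr17:81512874-81512903 (minus strand), chrX:154374709-154374738 (minus strand) and chr5:138465386-138465415 (plus strand).
ACTG1: ggaaagatcgCCATATATGGacatgttctg
FLNA: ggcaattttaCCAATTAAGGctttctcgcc
EGR1: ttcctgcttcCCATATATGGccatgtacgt
Whether serum response factor was bound there was not measured.

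**Figure D3:**
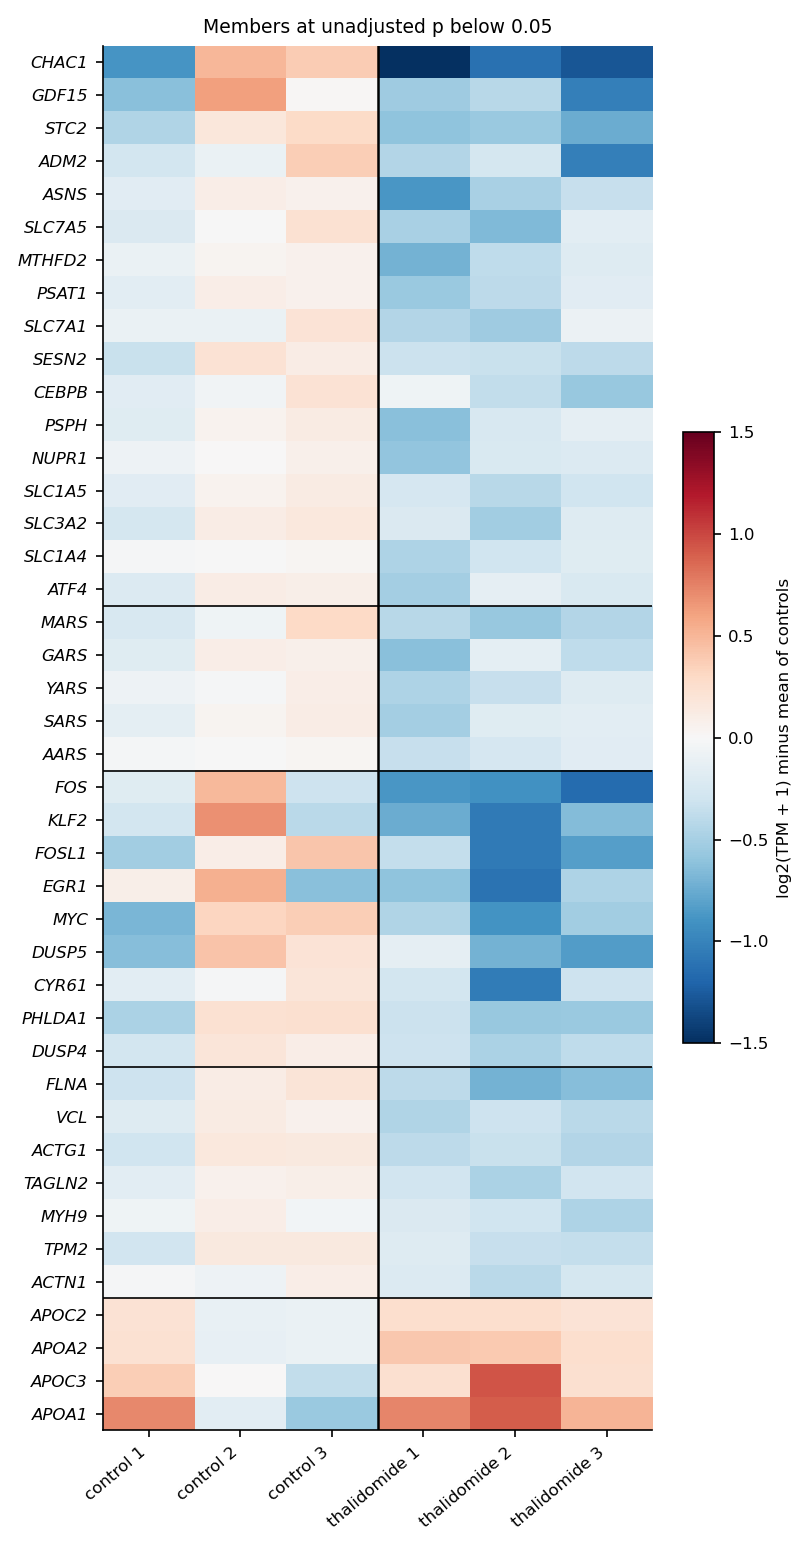
Members at an unadjusted p below 0.05 of, from top to bottom, the ATF4, tRNA synthetase, immediate early, cytoskeleton and apolipoprotein lists; colour is log2(TPM + 1) in each library minus the mean of the 3 controls, cut at 1.5 in either direction. Control 1 takes the colour of the thalidomide libraries in many rows, such as CHAC1, MYC and APOA1.

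Matrix and TGF-beta genes near these groups gave fewer members. Of 19 basement membrane genes 3 were lower at an unadjusted p below 0.05, beside 3.6% of all genes, while 9 of 19 lay above 0. Among the 3 were NID2 and the laminin chain gene LAMB3 (2.43, 3.01 and 2.49 TPM against 1.88, 2.01 and 1.77 TPM). The 3 became 1 without control 2 or thalidomide 3 and 5 without thalidomide 2. TGFB2, a TGF-beta ligand, was at 5.73, 7.24 and 8.99 TPM in the controls, against 3.46, 2.68 and 6.31 TPM with thalidomide (-0.74 ± 0.22). CTGF, a classical target of YAP and TGF-beta, was at 284, 216 and 275 TPM and 208, 144 and 255 TPM (-0.38 ± 0.20), with overlapping groups.

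Angiogenic factors, the group behind the drug's use against vessel growth, went both ways. Of 26 measured, 4 were lower and 1 higher at an unadjusted p below 0.05, beside 3.6% and 2.3% of all genes, with a median of -0.14. The 4 lower ones became 2 without control 2, thalidomide 1 or thalidomide 2 and 0 without control 3. VEGFA, the main endothelial growth factor, was at 86.9, 91.6 and 74.8 TPM in the controls, against 65.4, 94.5 and 65.5 TPM with thalidomide, without a difference beyond the spread (-0.18 ± 0.15). The chemokine gene CXCL8 was at 15.8, 35.8 and 29.1 TPM and 16.1, 10.6 and 22.3 TPM (-0.67 ± 0.30). THBS1, whose product thrombospondin 1 inhibits vessel growth, was at 42.6, 59.3 and 78.3 TPM and 36.6, 29.8 and 50.3 TPM (-0.60 ± 0.22). MDK, which encodes the heparin-binding growth factor midkine, was at 1499, 1215 and 1113 TPM and 1510, 1788 and 1630 TPM (0.37 ± 0.12), without overlap. The neuropilin gene NRP2 differed by -0.56 ± 0.23.

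Protein quality control was lower at a few members. Of 21 heat shock genes 5 were lower and 0 higher at an unadjusted p below 0.05, with a median of -0.19, beside 3.6% and 2.3% of all genes. The 5 became 0 with median-of-ratios scaling, 3 without control 2, 1 without control 3 and 1 without thalidomide 2. The chaperone gene HSP90AB1 was at 860, 814 and 861 TPM in the controls, against 736, 716 and 773 TPM with thalidomide (-0.19 ± 0.06). BAG3, a partner of HSP70, was at 24.8, 25.7 and 30.3 TPM and 23.6, 20.8 and 20.9 TPM (-0.29 ± 0.11), and HSPB8 differed by -0.22 ± 0.09. Of 33 proteasome and p97 genes 0 had an unadjusted p below 0.05 (median -0.08).

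Of 30 targets of NRF2, the regulator of antioxidant genes, 5 were lower and 1 higher at an unadjusted p below 0.05 (median -0.17). Over all genes these shares were 3.6% and 2.3%. The 5 became 11 without control 1, 1 without control 2 or thalidomide 2 and 0 without control 3 or with median-of-ratios scaling. GSR, the glutathione reductase, was at 151, 151 and 168 TPM in the controls, against 134, 132 and 140 TPM with thalidomide (-0.21 ± 0.07). AKR1C1, an aldo-keto reductase, was at 55.7, 82.8 and 96.2 TPM and 58.7, 59.2 and 60.2 TPM (-0.36 ± 0.16), with control 1 below all thalidomide libraries. The higher one was FTL, the ferritin light chain (0.16 ± 0.07), which was not counted when any 1 library was left out. From the lysosome and autophagy list, the receptor gene SQSTM1 was at 378, 513 and 559 TPM and 373, 364 and 380 TPM (-0.35 ± 0.11).

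Secreted liver proteins went both ways. The largest difference of the acute phase list was that of HAMP, the gene of hepcidin, which limits iron uptake. It was at 146, 61.7 and 34.2 TPM in the controls, against 197, 304 and 126 TPM with thalidomide. The controls spread widely, and control 1 lay above the lowest thalidomide library (1.52 ± 0.42, adjusted p = 0.575, and 0.0382 without control 1). SMAD6, like HAMP a target of BMP signalling, was at 29.1, 17.7 and 16.9 TPM and 28.7, 28.0 and 31.1 TPM (0.49 ± 0.18). Its control 1 lay within the thalidomide range. Other members of the TGF-beta list, ID1 (0.05 ± 0.10), ID2 (0.27 ± 0.16), ID3 (0.20 ± 0.13) and SMAD7 (0.16 ± 0.13), had no unadjusted p below 0.05.

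Of 16 apolipoprotein and lipoprotein assembly genes 4 were higher and 0 lower at an unadjusted p below 0.05, beside 2.3% and 3.6% of all genes. Of the 16, 12 lay above 0, beside 5797 of all 13994 genes, and the median was 0.09. The 4 became 2 without control 2, with GC correction or without limma's trend and 1 without control 3 or thalidomide 2, and the median ran from -0.01 to 0.20 over the alternatives. APOA1, the main protein of HDL, was at 65.3, 35.1 and 26.4 TPM in the controls, against 66.2, 74.5 and 56.4 TPM with thalidomide (0.72 ± 0.25). APOA2 was at 2157, 1688 and 1711 TPM and 2429, 2417 and 2192 TPM, without overlap (0.35 ± 0.10). APOC3 (0.47 ± 0.21) and APOC2 (0.24 ± 0.10) were the others. In all 4 genes control 1 was the highest control.

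All 14 measured fibrinogen and coagulation genes lay above 0, beside 5797 of all 13994 genes (median 0.14, from 0.03 to 0.28 over the alternatives). Only F2, prothrombin, had an unadjusted p below 0.05, beside 2.3% of all genes higher at that level. F2 was at 97.3, 63.9 and 52.5 TPM in the controls, against 111, 110 and 93.6 TPM with thalidomide (0.59 ± 0.20). The count of 1 became 3 without control 1, 2 without thalidomide 1 and 0 without control 3. SERPINA1, alpha-1-antitrypsin, was at 454, 244 and 194 TPM and 315, 508 and 398 TPM (0.52 ± 0.26), and the fetuin gene AHSG at 51.5, 19.4 and 14.5 TPM and 33.9, 64.7 and 38.9 TPM (0.82 ± 0.37). AFP, the fetal serum protein used as a liver tumour marker, was at 310, 236 and 173 TPM and 225, 536 and 376 TPM (0.61 ± 0.36). ALB, albumin, was at 1472, 1312 and 1046 TPM and 959, 1362 and 1433 TPM. In all 5 of these genes the groups overlapped. The vitamin D-binding protein gene GC was lower, at 40.7, 40.1 and 40.8 TPM in the controls, against 28.1, 28.2 and 32.8 TPM with thalidomide (-0.44 ± 0.18), without overlap. Of 18 measured complement genes 10 lay below 0, beside 58.6% of all genes, with a median of -0.03. At an unadjusted p below 0.05, 3 were lower and 0 higher, beside 3.6% and 2.3% of all genes. These were CD59, which blocks the membrane attack complex (-0.33 ± 0.12), and the protease genes C1R (-0.40 ± 0.15) and C1S (-0.44 ± 0.17). The 3 became 1 without control 2 or control 3 and 0 without thalidomide 2, and 3 complement genes were higher without control 1. Of 26 cholesterol synthesis and uptake genes 21 lay above 0, beside 5797 of all 13994 genes, with a median of 0.07. TM7SF2 was the 1 with an unadjusted p below 0.05 (0.43 ± 0.16), beside 2.3% of all genes higher at that level. That 1 became 5 without control 1 and 0 without control 3, thalidomide 1 or thalidomide 2.

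**Figure D4:**
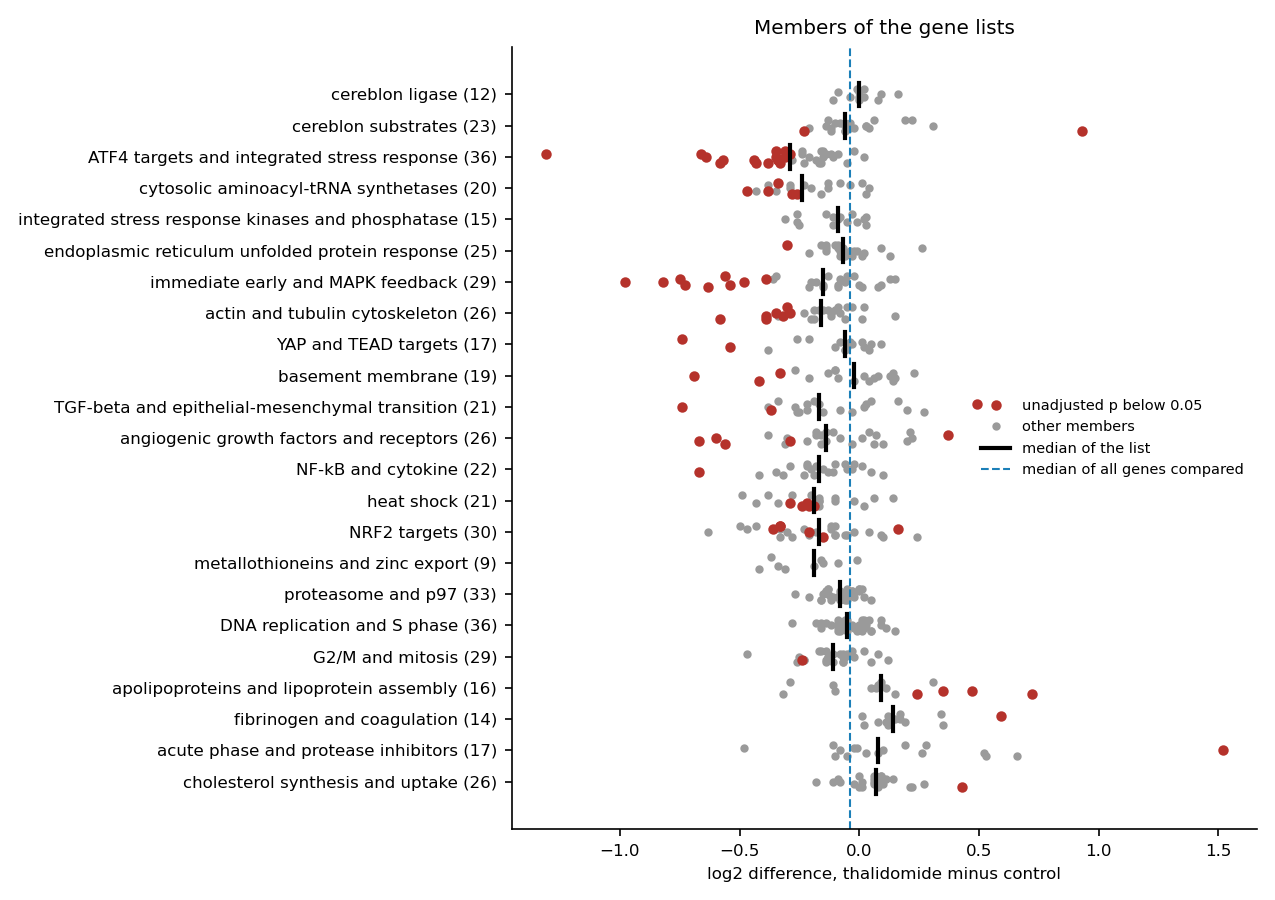
Log2 differences of thalidomide minus control for every measured member of 23 gene lists, with the number of members in brackets; red points have an unadjusted p below 0.05, black bars are list medians and the dashed line is the median of all genes, -0.04. The ATF4 list has the lowest median (-0.29) of those drawn, and the red point at the far right is HAMP at 1.52.

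The number of genes past the threshold depended most on control 1. Without it, 25 genes passed (0.179%), 7 higher and 18 lower, while leaving out any other library gave at most 1. In 22 of the 25 the log2 level of control 1 was nearer to the thalidomide mean than to the mean of controls 2 and 3, against 8119 of all 13994 genes. Control 1 was the lowest control in all 18 that were lower and the highest control in all 7 that were higher, which is what leaving it out selects for. FHL2, a LIM domain coactivator, was at 16.0, 33.2 and 30.2 TPM in the controls, against 15, 15.9 and 17.1 TPM with thalidomide (adjusted p = 0.00753 without control 1). GPRC5B, an orphan receptor, was at 39.4, 62.0 and 67.9 TPM and 36.9, 33.1 and 37.9 TPM (adjusted p = 0.00753 without control 1). MYOF, a membrane repair protein, was at 7.63, 17.8 and 15.6 TPM and 6.71, 8.15 and 6.37 TPM (adjusted p = 0.0118 without control 1).

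The Wnt inhibitor gene DKK1 was at 68.1, 145 and 155 TPM in the controls, against 77.2, 83.2 and 86.8 TPM with thalidomide, with control 1 below all of them. EZR, which links actin to the membrane, was at 135, 172 and 177 TPM and 123, 117 and 128 TPM, and TM4SF1 at 176, 254 and 254 TPM and 149, 153 and 157 TPM. THBS4 was at 13.5, 6.04 and 5.54 TPM and 9.88, 12.3 and 12.0 TPM. Among the lists, control 1 was the lowest control in 28 of 36 ATF4 genes, in 18 of 20 tRNA synthetases and in 17 of 26 cytoskeleton genes, against 36.3% of all genes, and the highest control in 11 of 16 apolipoprotein genes, against 34.2%. For the 29 immediate early genes these shares were close to those of all genes, with control 1 lowest in 12 (41.4%) and highest in 10 (34.5%). What sets control 1 apart is not given in the labels, and its part in these differences was not tested.

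**Figure D5:**
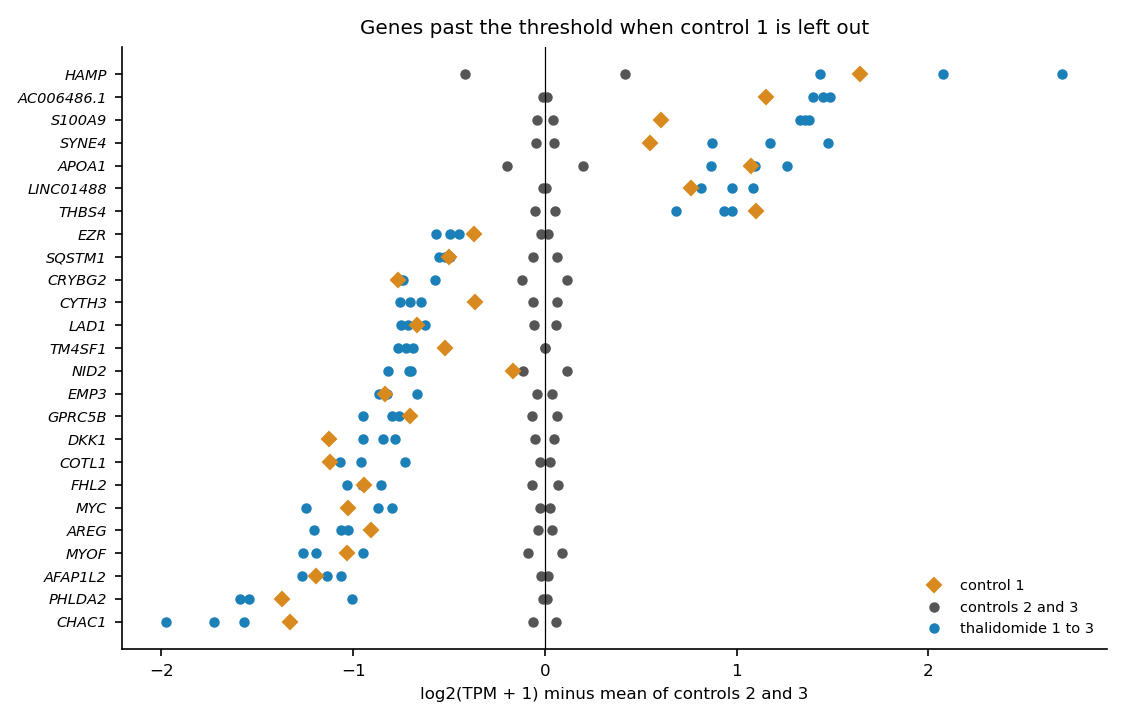
The 25 genes past the threshold when control 1 is left out; the horizontal axis is log2(TPM + 1) minus the mean of controls 2 and 3, with grey points for those controls, blue points for the 3 thalidomide libraries and orange diamonds for control 1. The diamonds lie among or next to the blue points for most genes and near the grey points for NID2.

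GC content moved with the comparison to a small degree. The log2 difference followed GC content across genes with a Spearman's rho of 0.21, which was -0.04 without thalidomide 1 and -0.01 after each library was corrected for GC. The medians after that correction were -0.28 for the ATF4 list, -0.24 for the tRNA synthetases, -0.15 for the immediate early genes, -0.17 for the cytoskeleton and 0.08 for the apolipoproteins.

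The combination minus disulfiram asks for the same drug in the presence of another and shares no library with this comparison. Its list medians were -0.03 for ATF4 targets, 0.11 for tRNA synthetases, -0.05 for immediate early genes, -0.04 for the cytoskeleton and 0.03 for apolipoproteins, beside 0.06 over all genes. In the same order, the medians of disulfiram minus control were -0.62, -0.43, 0.55, 0.05 and -0.24, beside 0.07 over all genes. Most of these lists thus started from another level in the presence of disulfiram, so the medians are not a like-for-like repeat. Across the genes compared, the differences without and with disulfiram had a Spearman's rho of -0.06, a value across genes, which are not independent replicates. NID2 was at 58.4, 56.9 and 61.4 TPM with disulfiram and 58.8, 56.1 and 53.5 TPM with both drugs (-0.07 ± 0.09). FOS was at 19, 16.2 and 22.1 TPM and 20.4, 20.5 and 19.6 TPM, and CHAC1 at 5.37, 8.22 and 4.69 TPM and 6.48, 5.23 and 5.70 TPM. For these 3 genes the groups overlapped. No gene passed the threshold for the difference between those comparisons in limma (0%), with 1515 at an unadjusted p below 0.05 and a smallest adjusted p of 0.0566.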

How the data were processed

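RNA of 12 Huh7 libraries was measured, and the 3 control and 3 thalidomide libraries are compared here. The authors deposited TPM per gene, whose columns each sum to the same total, so the values carry no read depth and allow no counting interval. Per the submitters' processing notes, the tools were HISAT2 2.0 and StringTie 1.3.0 and the build hg38. Which annotation and filters were used is not given there. Of 58884 Ensembl identifiers 58611 were matched to GENCODE 29 for symbols and coordinates.

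Deposited TPM was put on a scale of log2(TPM + 1), which understates changes of genes with low TPM. Genes entered where 3 or more of the 6 libraries reached 1 TPM. Means of 4 groups were fitted with limma 3.58.1 (R 4.3.3) with its mean-variance trend, all 12 libraries in the fit so that they share 1 estimate of the spread, two-sided tests and no replicate term. P-values were adjusted by Benjamini-Hochberg over 13994 genes. Marker sums and library measures were compared with exact permutation tests (SciPy 1.17.1). The fit was tested on simulated data.

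Genes were named by rule: the 12 largest differences in each direction among genes with an unadjusted p below 0.05, no overlap and a mean of at least 5 TPM, the 5 smallest p in each direction, every gene past the threshold with 6 libraries, the cereblon lists, and from other lists the members with the smallest p and the highest TPM. Genes past the threshold without control 1, and the remaining members at an unadjusted p below 0.05 of the ATF4, tRNA synthetase, immediate early, cytoskeleton and apolipoprotein lists, were added after their values were seen, as were AC006486.1 and the transporters and serine enzymes of the ATF4 list. Copies with identical values were counted once. Members, lists and rules were chosen with earlier results of these data known. Alternatives covered the pseudocount, filters, scaling, libraries in the fit, the trend, a replicate term, GC content and leaving out each library. Promoters came from RefSeq (GRCh38.p14). Some genes that met these rules are not reported here.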

Additional observations from a re-analysis of the deposited data

Results flagged for a closer look

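In 5 of the 263 genes picked by the naming rules, the 3 libraries with thalidomide all lay on 1 side of those without it when disulfiram was absent, and all on the other side when it was present. Over all 13994 genes compared, 101 did so (0.722%). The naming rules pick in part for groups without overlap or a small p, so the 2 counts are not comparable. By definition the 101 lie among the 533 higher and 926 lower genes without overlap when disulfiram was absent. The value given is the difference of the 2 differences on the log2 scale, the combination minus disulfiram minus that of thalidomide minus control. None of the 5 passed the threshold for that difference (limma adjusted p = 0.445 for each), and no explanation was tested.

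SYNE4 had the largest, at -1.18 ± 0.27, with 3.25, 2.52 and 2.95 TPM given disulfiram and 2.46, 2.5 and 2.27 TPM given both drugs. CCDC80 was at 1.08 ± 0.21, with 62.3, 60.7 and 76.3 TPM given disulfiram and 85.0, 78.0 and 84.2 TPM given both. BCL2L11, which encodes the death-promoting protein BIM, was at -0.97 ± 0.20. Its controls were at 12.8, 9.99 and 8.62 TPM and its thalidomide libraries at 15.3, 18.8 and 15.3 TPM, against 17.3, 20.1 and 22.6 TPM given disulfiram and 15.4, 15.8 and 15 TPM given both. MX1, an interferon-induced GTPase, was at -0.54 ± 0.20, with 0.86, 1.49 and 1.11 TPM in the controls, against 1.69, 1.74 and 1.65 TPM with thalidomide, close to the TPM minimum. HSP90AB1 was at 0.31 ± 0.09.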

How the results depend on the processing

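The count of genes past the threshold, 0, was 1 with a mean of at least 5 TPM (NID2), 1 with 10 libraries in the fit (SNORA57), 3 with only the 6 libraries and 3 with those and GC correction, a setting chosen after seeing the data. It ran from 0 to 25 as each library was left out. The count of genes at an unadjusted p below 0.05, 826, was 1445 with no filter on low values, where 28543 features were tested, and 517 to 1145 as each library was left out. The interaction count, 0, was 1 with a pseudocount of 0.1, 10 libraries, no trend, median-of-ratios scaling or quantile normalization. The cause of these shifts was not tested. Among the named genes, signs turned for ALB, at 0.07 without control 1 and 0.14 without thalidomide 1 (range -0.17 to 0.14 as each library was left out), for SALL4, at 0.07 and 0.06 in those settings (range -0.16 to 0.07), for PHGDH, at 0.03 without thalidomide 1 (range -0.17 to 0.03), and for FTL, at -0.05 with quantile normalization. Same-numbered control and thalidomide libraries deviated together with r of -0.05, 0.07 and 0.22. For same-numbered disulfiram and combination libraries r was 0.26, 0.45 and 0.03. So few values cannot show whether the numbers pair libraries, which the labels do not say and which was not tested. With a replicate block 0 genes passed and 810 had an unadjusted p below 0.05, and with the block and GC correction 0 and 966. TPM keeps no depth, which leaves the precision of low genes unknown.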

Other observations

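Lists of growth and of the mitochondrial genome had few or no members at an unadjusted p below 0.05. Of 36 DNA replication genes and 20 p53 targets 0 had an unadjusted p below 0.05 (medians -0.05 and 0.01). Of 29 mitosis genes 1 did and was lower, beside 3.6% of all genes lower and 2.3% higher at that level. With 1 library left out, the counts ran up to 3, 1 and 2. Of 13 protein-coding genes of the mitochondrial genome 0 did (median -0.04), and 1 without control 1. All 9 measured genes of the metallothionein and zinc list lay below 0, beside 58.6% of all genes, with a median of -0.19. Of the 9, 0 had an unadjusted p below 0.05, against 3 without control 1 and 1 without thalidomide 3.

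Oncofetal and fate genes gave single members at an unadjusted p below 0.05. Of 16 oncofetal genes 1 was lower and 0 higher, and of 6 measured cholangiocyte markers 1 was lower and 0 higher. Of 22 genes of the BCL2 family and caspases 1 was lower and 1 higher. Over all genes these shares were 3.6% and 2.3%, and counts of 1 in lists this short do not set them apart. LIN28A, which blocks maturation of let-7 microRNAs, was at 1.44, 2.5 and 3.17 TPM in the controls, against 0.61, 1.12 and 1.00 TPM with thalidomide (-0.79 ± 0.22), close to the TPM minimum. SOX9, a progenitor and duct transcription factor, was at 42.3, 44.5 and 46.7 TPM and 40.9, 29 and 38.7 TPM (-0.30 ± 0.11). BIK, a death-promoting BCL2 relative, was at 5.71, 10.7 and 7.12 TPM and 4.74, 6.49 and 4.89 TPM (-0.44 ± 0.19), on the other side from BCL2L11. None passed the threshold.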
